A study of Mus musculus with 9 samples.

Results

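The genes described here are 40 genes of the G2 phase and mitosis, out of 54146 genes listed in an RNA-seq table of mouse colonic mucosa. They were chosen by name for their known roles in mitotic entry, spindle assembly, chromosome segregation and cytokinesis. The choice was made with earlier results of these data known, so counts over the 40 are descriptions and not tests. Each of the 40 symbols had 1 entry in the table. The mice were C57BL/6J at 15 wk of age, and 5 of them, of which 2 were female, were ApcMin/+ and 4, of which 3 were female, were ApcMin/+; p16cis/cis. Every mouse, the controls included, carried the Min mutation on a single germline copy of Apc, which starts intestinal adenomas, so no wild-type mucosa was compared. The p16cis allele is a knock-in of a short DNA element that draws DNA methylation onto the promoter of p16, the Cdk4 and Cdk6 inhibitor encoded by Cdkn2a, and ApcMin/+; p16cis/cis mice carried it on both alleles in the whole body. Each mouse is 1 replicate.

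Cells that leave S phase accumulate cyclin B and Cdk1, which drive entry into mitosis, and the Aurora and Polo-like kinases then build the spindle. The spindle checkpoint holds the anaphase-promoting complex (APC/C) in check until every kinetochore is attached, after which the APC/C marks securin and cyclin B for destruction and the cell divides. Transcription of these genes peaks together in G2 and M through the factors FOXM1 and B-MYB, which act with the MuvB complex, and in the colon the dividing cells lie in the lower part of the crypts.

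The p16 gene itself, Cdkn2a (ENSMUSG00000044303.6), was listed at 0 in 9 of 9 libraries, so these libraries give no check of the genotype labels through that gene. Libraries held 15745098 to 17885918 reads on genes in ApcMin/+ mice and 13523500 to 14900228 in ApcMin/+; p16cis/cis mice, without overlap. Mitochondrially encoded genes took between 8.74% and 15.6% of them in the ApcMin/+ group and between 19.3% and 29.8% in the ApcMin/+; p16cis/cis group, without overlap. Reads on all other genes numbered 13491566 to 16323355 and 9500077 to 12023645, so the ApcMin/+; p16cis/cis libraries were the shallower ones. Values are normalized counts, that is, reads scaled by a size factor specific to the mouse. The 40 genes were well covered, since the lowest value of any of them in any mouse was 66.1, which stood for 52 reads. All 40 were among the 14410 genes tested, those reaching a normalized count of 10 in 4 or more mice.

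The G2/M and mitotic genes were higher, as far as they moved, in the ApcMin/+; p16cis/cis mucosa. By limma with Benjamini-Hochberg adjustment over all genes tested, 13 of the 40 rose and 0 fell at an adjusted p under 0.05, where 8.14% of all genes tested rose and 8.75% fell. The 13 were Ube2c, Aurka, Foxm1, Cdca3, Mki67, Kif23, Cenpe, Birc5, Aurkb, Tpx2, Nusap1, Ccnb2 and Kif4. Their rises were moderate, from 1.38-fold for Birc5 to 1.90-fold for Ube2c, and 0 of them exceeded 2-fold, where 1.83% of all genes tested rose and 1.64% fell by more than that at the same adjusted p. The count at an unadjusted p under 0.05 was 20 higher and 0 lower, beside 16.2% of all genes tested higher and 17% lower. The log2 fold change was above 0 in 37 of the 40 and below 0 in Bub1b, Kif20a and Ect2, beside 49.6% above 0 among all genes. Their median log2 fold change was 0.37 against -0.00 for all genes tested. The DESeq2 test on the recovered reads called 15 of the 40 higher and 0 lower, beside 8.9% and 10.1% of its genes. The edgeR test called 12 higher and 0 lower, beside 8.08% and 9.05%. After a correction for GC content and length, limma called 15 higher and 0 lower, beside 6.44% and 5.55%.

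**Figure D1:**
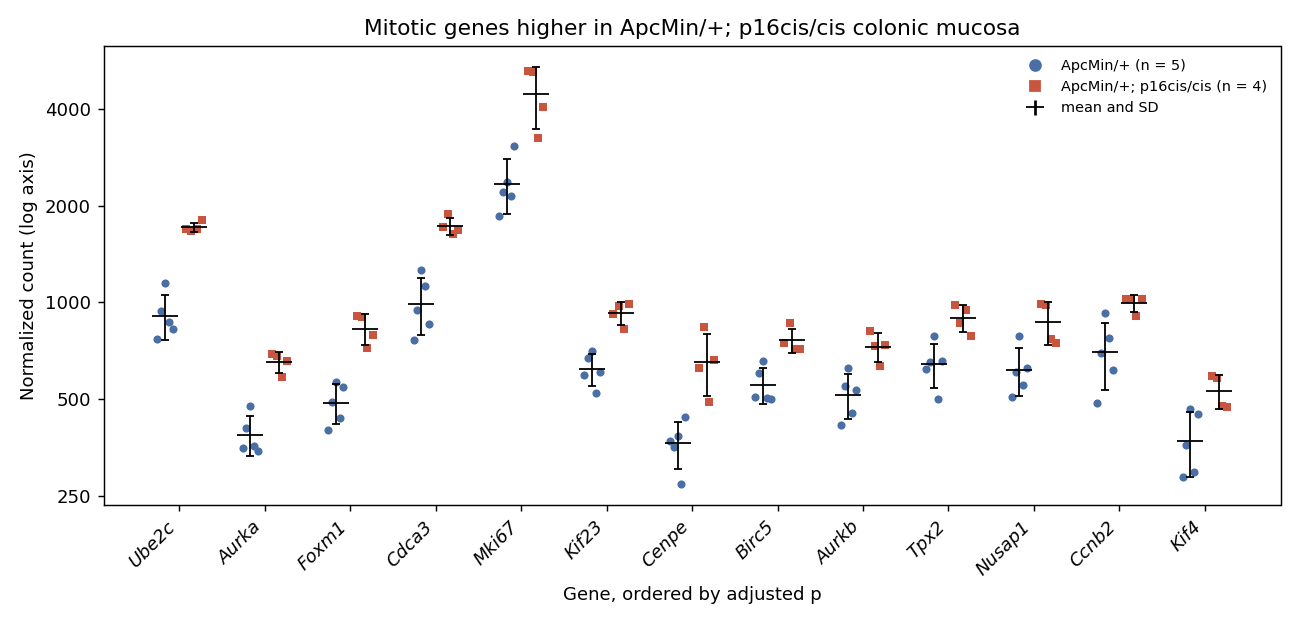
Normalized counts, on a log axis, of the 13 mitotic genes that rose, in order of adjusted p. Each circle is 1 of 5 ApcMin/+ mice and each square 1 of 4 ApcMin/+; p16cis/cis mice, and bars are the mean and SD. Squares lie above circles throughout except for overlaps in Nusap1 and Ccnb2.

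In 12 of the 40 genes the lowest ApcMin/+; p16cis/cis mouse lay above the highest ApcMin/+ mouse, and in 0 the reverse held, beside 7.24% and 8.95% of all genes tested. These were 11 of the genes that rose and Cdc25c, which did not pass the test. The sexes were unevenly spread over the genotypes, so the order of mice was also read within sex. In 25 of the 40 genes the 3 ApcMin/+; p16cis/cis females lay above both ApcMin/+ females, an order found in 22.2% of all genes tested. The single ApcMin/+; p16cis/cis male lay above the 3 ApcMin/+ males in 29 of the 40, beside 29.1% of all genes tested. The 13 genes that rose, chosen by a test on these same mice, were among both counts. In females alone, 7 of the 40 genes and 3.6% of all genes tested were called higher, and 6 of the 7 were among the 13. The count was 8 without ApcMin/+ replicate 1 and 8 without ApcMin/+; p16cis/cis replicate 1, beside 6.31% and 7.49% of all genes tested. It was 7 without ApcMin/+; p16cis/cis replicate 2, beside 3.96%. When the share of mitochondrial reads entered the fit as a covariate, 0 of the 40 and 0 of all genes tested were called, while 13 of the 40 and 798 of the 14410 had an unadjusted p under 0.05. In that fit the median log2 fold change of the 40 was 0.53, and those of the 13 genes ran from 0.33 to 1.24. That share varied mostly with genotype (78.1% of its variance between mice), so its part in these rises cannot be told apart from that of the genotype. In bulk RNA, more dividing cells and more mitotic RNA per dividing cell cannot be told apart either.

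**Figure D2:**
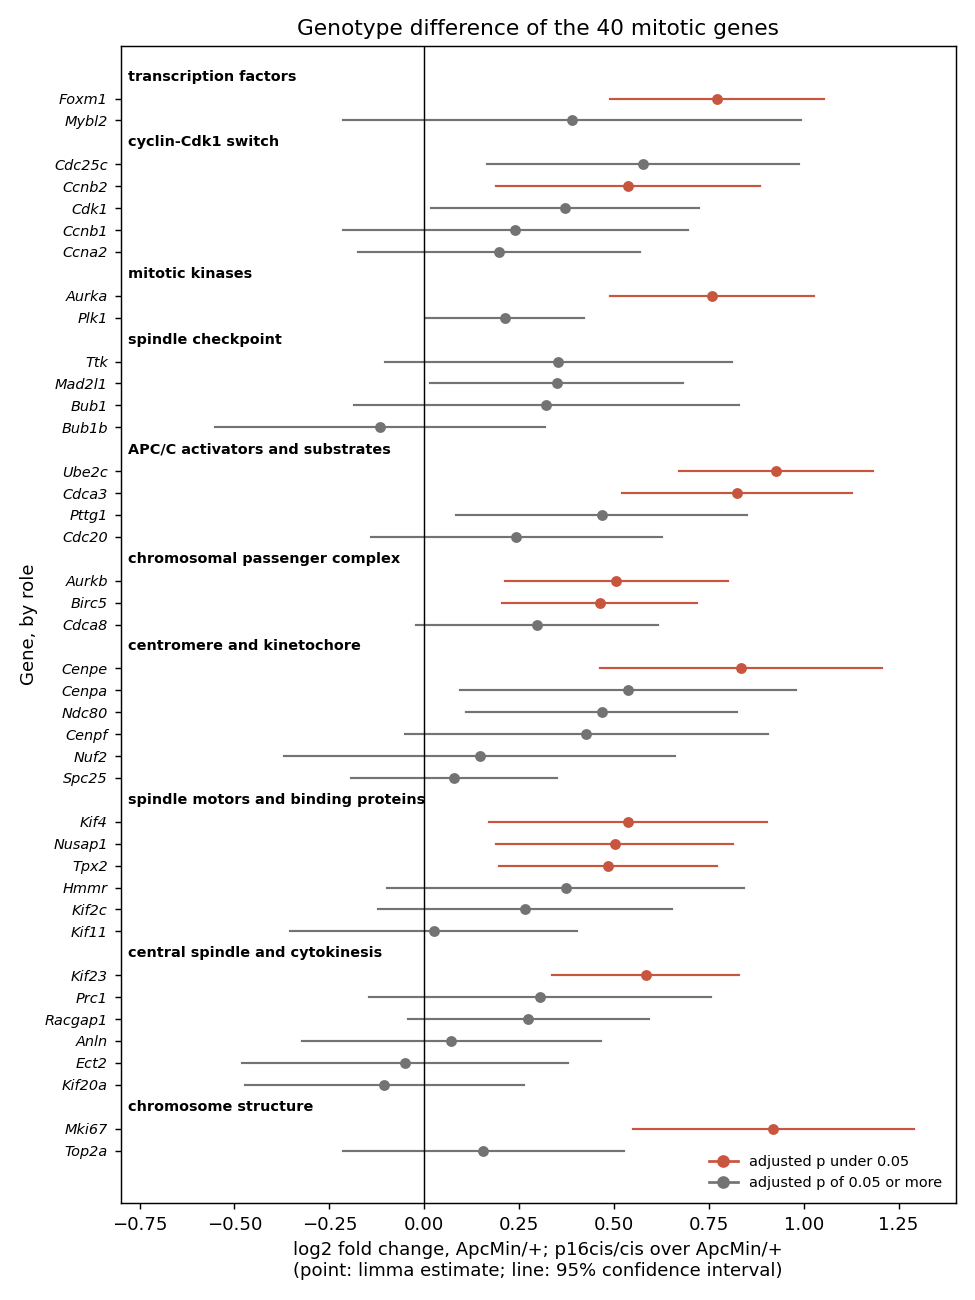
Log2 fold change of each of the 40 genes between genotypes, grouped by role, with the limma estimate as a point and its 95% confidence interval as a line. The 13 genes in red passed an adjusted p of 0.05. The remaining 27 are in grey, and 3 of the 40 points lie left of 0.

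Promoter sequences are shown because many mitotic genes share a short element, the cell cycle genes homology region (CHR), to which MuvB complexes bind. The RefSeq promoters of GRCm38.p6, from 250 bases before to 50 bases after the start, covered 34 of the 40 genes. The CHR letters TTTGAA were searched on both strands, so that TTCAAA counts as a match on the opposite strand. They were in the promoters of 25 of the 34 genes (73.5%) and of 20.2% of 27025 genes with a promoter. Within the stretch from 60 bases before the start to the window's end, which was chosen after the positions were seen, 23 of the 34 (67.6%) had a match, beside 6.36% of all genes. The CCAAT letters, searched on both strands, were in 73.5% of the 34 and 41.1% of all genes, and both motifs in 64.7% and 7.97%. The variant TTCGAA was in 3 of the 34 (8.82%) and in 1.80% of all genes. A CHR match was found in 7 of the 10 genes that rose and had a promoter, and in 18 of the 24 that did not pass the test. The windows below are 30 bases each, written along the coding strand of the gene with the CHR match in capitals. The first 7 are of genes that rose:
Ube2c (chr2:164769888-164769917, plus strand): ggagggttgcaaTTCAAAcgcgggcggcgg
Aurka (chr2:172370521-172370550, minus strand): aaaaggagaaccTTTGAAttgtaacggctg
Cdca3 (chr6:124830194-124830223, plus strand): cgtggagggaagTTTGAAactccgggcttt
Mki67 (chr7:135716460-135716489, minus strand): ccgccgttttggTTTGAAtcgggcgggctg
Kif23 (chr9:61946780-61946809, minus strand): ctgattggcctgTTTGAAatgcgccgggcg
Ccnb2 (chr9:70421533-70421562, minus strand): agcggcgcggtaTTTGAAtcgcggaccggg
Kif4 (chrX:100626072-100626101, plus strand): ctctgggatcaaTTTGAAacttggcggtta
The next 4 are of genes that did not pass the test, shown because each is a partner of a gene that rose or has the same element at a like distance:
Cdk1 (chr10:69352910-69352939, minus strand): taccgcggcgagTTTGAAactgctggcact
Plk1 (chr7:122159453-122159482, plus strand): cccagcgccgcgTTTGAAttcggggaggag
Cdc20 (chr4:118437344-118437373, minus strand): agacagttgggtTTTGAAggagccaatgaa
Top2a (chr11:99024195-99024224, minus strand): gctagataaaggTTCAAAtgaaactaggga
Counted from the RefSeq start, the match in Cdca3 and that in Plk1 began at the same distance, 31 bases after it. Yet Cdca3 rose and Plk1 did not pass the test. As annotated by GENCODE, the Cdca3 gene begins further upstream, at chr6:124829547. A match is a run of letters in a window and not a measured binding site.

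**Figure D3:**
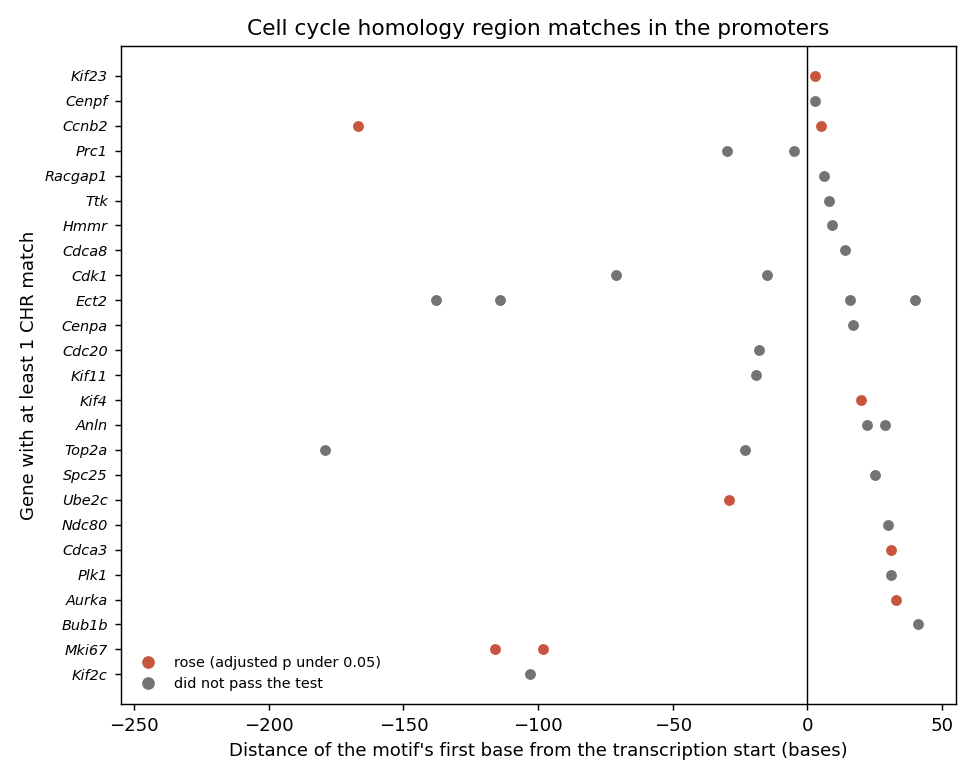
Distance in bases from the RefSeq transcription start to the first base of each CHR match, for the 25 genes with a match. Genes that rose are in red and the others in grey. Most matches of both kinds lie near the start. Ect2 and Prc1 each have 2 annotated starts, so their matches are plotted once for each start.

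Of the 2 transcription factors, Foxm1 rose. FOXM1 activates late cell cycle genes, and its gene (ENSMUSG00000001517.14) lies at chr6:128362967-128376146 of GRCm38, as annotated by GENCODE. In replicate order, the 5 ApcMin/+ mice had normalized counts of 402, 489.7, 564, 437 and 545, and the 4 ApcMin/+; p16cis/cis mice 909, 899.7, 719.8 and 789.5. Every ApcMin/+; p16cis/cis mouse lay above every ApcMin/+ mouse. The means were 487 ± 68.9 (SD, n = 5) and 830 ± 91.1 (SD, n = 4), a log2 fold change of 0.77 (standard error 0.13, limma adjusted p = 0.00453). Its exons overlap those of Tex52 and Gm44596 on the same strand, which were not analysed here. Mybl2, which encodes B-MYB, overlapped between genotypes, with 66.1 to 166 in ApcMin/+ and 100.3 to 194 in ApcMin/+; p16cis/cis mice, and its log2 fold change of 0.39 had an interval from -0.21 to 0.99 (limma adjusted p = 0.358).

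The cyclin-Cdk1 switch gave 1 call among 5 genes. Ccnb2 (ENSMUSG00000032218.7, chr9:70407692-70421547) encodes cyclin B2. Its normalized counts were 488, 695, 927, 773 and 619 in ApcMin/+ mice and 1022, 1029, 908 and 1023 in ApcMin/+; p16cis/cis mice. The genotypes overlapped only because ApcMin/+ replicate 3 lay above ApcMin/+; p16cis/cis replicate 3. The log2 fold change was 0.54 (standard error 0.16, limma adjusted p = 0.0388). Reads could be shared with the pseudogene Ccnb2-ps. Cdc25c, the phosphatase that activates Cdk1, had the largest log2 fold change of the 5 genes. Its counts were 91.5, 103, 133, 125.8 and 121 in ApcMin/+ mice and 164, 231, 156 and 141 in ApcMin/+; p16cis/cis mice, without overlap. The log2 fold change was 0.58 (standard error 0.19) and the limma adjusted p 0.0553, the smallest of any of the 40 genes that did not pass.

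The catalytic subunit and the other cyclins did not pass the test. Cdk1 had counts of 503, 709, 821, 508 and 595 in ApcMin/+ mice and 861, 879, 637 and 835 in ApcMin/+; p16cis/cis mice, a log2 fold change of 0.37 (standard error 0.16, limma adjusted p = 0.134). Its ApcMin/+; p16cis/cis replicates 1, 2 and 4 lay above every ApcMin/+ mouse and replicate 3 did not. Ccnb1, which encodes cyclin B1, had 139, 176, 246, 129.7 and 148 against 177, 238, 153 and 215, fully overlapping, and its log2 fold change was 0.24 (standard error 0.21, limma adjusted p = 0.462). For Ccna2, the cyclin A2 gene, the log2 fold change was 0.20, with an interval from -0.17 to 0.57 (limma adjusted p = 0.459).

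Of the 2 mitotic kinases, Aurka rose and Plk1 did not pass the test. Aurka (ENSMUSG00000027496.15, chr2:172356190-172370535) encodes Aurora A, which matures the centrosomes. Its normalized counts were 353, 408, 477, 358 and 346 in ApcMin/+ mice and 691, 683, 585 and 658 in ApcMin/+; p16cis/cis mice, without overlap. The means were 388 ± 55.2 (SD, n = 5) and 654 ± 48.4 (SD, n = 4), and the log2 fold change was 0.76 (standard error 0.12, limma adjusted p = 0.00404). Plk1, the Polo-like kinase of mitotic entry and exit, had a mean normalized count of 1508 ± 143 (SD, n = 5) in ApcMin/+ and of 1743 ± 71.8 (SD, n = 4) in the other genotype, and its log2 fold change was 0.21, with an interval from 0.01 to 0.42 and a limma adjusted p of 0.141.

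Genes around the APC/C held the smallest adjusted p of the 40. Ube2c (ENSMUSG00000001403.13, chr2:164769898-164778822) encodes the ubiquitin-conjugating enzyme that works with the APC/C. Its normalized counts were 768, 938, 1150.2, 871 and 829 in ApcMin/+ mice and 1695, 1673, 1695 and 1800.0 in ApcMin/+; p16cis/cis mice. The genotypes were far apart, and the 4 ApcMin/+; p16cis/cis mice lay close together. The means were 911 ± 147 (SD, n = 5) and 1716 ± 57.1 (SD, n = 4), a log2 fold change of 0.93 (standard error 0.12, limma adjusted p = 0.00172). Exons of Ube2c overlap those of Tnnc2 on the opposite strand, and Tnnc2 was listed at 0 in every mouse.

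Cdca3 (ENSMUSG00000023505.13, chr6:124829547-124833701), whose product helps degrade the mitotic inhibitor WEE1, rose as well. Its normalized counts were 765, 945, 1258, 1122 and 858 in ApcMin/+ mice and 1712, 1884, 1632 and 1682 in ApcMin/+; p16cis/cis mice. Here too the genotypes did not overlap, and the log2 fold change was 0.82 (standard error 0.14, limma adjusted p = 0.00464). Neither of the remaining genes of this group passed. Pttg1, which encodes the separase inhibitor securin, had a log2 fold change of 0.47 (limma adjusted p = 0.0874) and 1 ApcMin/+ mouse, replicate 4, at 1103 against 605 to 742 in the others. Cdc20, the mitotic activator of the APC/C, had a log2 fold change of 0.24 (limma adjusted p = 0.368).

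The chromosomal passenger complex corrects faulty attachments and then moves to the central spindle. Its kinase gene Aurkb (ENSMUSG00000020897.12, chr11:69045647-69051664) had normalized counts of 415, 549.6, 624, 454 and 536 in ApcMin/+ mice and 813, 731, 633 and 736 in ApcMin/+; p16cis/cis mice. Birc5 (ENSMUSG00000017716.15, chr11:117849251-117855743), which encodes survivin, had 509, 604, 657, 503 and 502 against 750.1, 861, 718 and 719. Both rose without overlap, Aurkb by 0.51 on the log2 scale (standard error 0.13, limma adjusted p = 0.0255) and Birc5 by 0.46 (standard error 0.12, limma adjusted p = 0.0222). In Aurkb the gap was narrow, between 624 in the highest ApcMin/+ and 633 in the lowest ApcMin/+; p16cis/cis mouse. The borealin gene Cdca8 had a log2 fold change of 0.30 and did not pass (limma adjusted p = 0.179).

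Of the 4 spindle checkpoint genes, 0 passed in the reported limma fit, in edgeR with TMM scaling or in DESeq2, and 1, Mad2l1, had an unadjusted p under 0.05 by limma. Mad2l1 passed after the correction for GC content and length (limma adjusted p = 0.0122). Ttk, which encodes the checkpoint kinase MPS1, had the largest difference, with normalized counts of 187, 221, 242, 135 and 209 in ApcMin/+ mice and 316, 308, 194 and 205 in ApcMin/+; p16cis/cis mice. The genotypes overlapped and the log2 fold change was 0.35 (standard error 0.21, limma adjusted p = 0.265). Mad2l1 and Bub1 had log2 fold changes of 0.35 and 0.32 (limma adjusted p = 0.133 and 0.366). Bub1b, which encodes BUBR1, had one below 0, at -0.12 with an interval from -0.55 to 0.32 (limma adjusted p = 0.724).

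At the centromere and kinetochore 1 of 6 genes rose. Cenpe (ENSMUSG00000045328.11, chr3:135212537-135273611), the motor that brings chromosomes to the spindle equator, had normalized counts of 370.5, 356, 384, 272 and 442 in ApcMin/+ mice and 628, 839, 491 and 663 in ApcMin/+; p16cis/cis mice. They did not overlap, and the log2 fold change was 0.83 (standard error 0.17, limma adjusted p = 0.00949). Cenpa, the centromeric histone H3 variant, and Cenpf had log2 fold changes of 0.54 and 0.43 (limma adjusted p = 0.0887 and 0.196). For 3 genes of the NDC80 complex, which binds microtubules, the log2 fold changes were 0.47 for Ndc80, 0.15 for Nuf2 and 0.08 for Spc25 (limma adjusted p = 0.0693, 0.707 and 0.700).

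Among 6 spindle motors and binding proteins, 3 rose. TPX2 activates Aurora A on the spindle, and Tpx2 (ENSMUSG00000027469.16, chr2:152847964-152895321) had normalized counts of 619, 651, 786, 501 and 659 in ApcMin/+ mice and 981, 865, 948 and 786 in ApcMin/+; p16cis/cis mice. The genotypes did not overlap, but ApcMin/+ replicate 3 and ApcMin/+; p16cis/cis replicate 4 were both at 786 when rounded. Its log2 fold change was 0.49 (standard error 0.13, limma adjusted p = 0.0274). Nusap1 (ENSMUSG00000027306.15, chr2:119618298-119651244), which bundles microtubules near chromatin, had 510.0, 608, 784, 555 and 625 against 991, 983, 768 and 746. The genotypes overlapped through ApcMin/+ replicate 3, and the log2 fold change was 0.50 (standard error 0.14, limma adjusted p = 0.0335). Exons of Nusap1 overlap those of Oip5 on the opposite strand, which had at most 104 in any mouse.

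Kif4 (ENSMUSG00000034311.3, chrX:100625737-100727214), a chromosome-bound kinesin, had 286, 360.4, 466, 296 and 449 in ApcMin/+ mice and 592, 584, 476 and 473 in ApcMin/+; p16cis/cis mice. These did not overlap, by a margin of 473 over 466, and the log2 fold change was 0.54 (standard error 0.17, limma adjusted p = 0.0474, the largest among the 13). Its exons overlap those of Pdzd11 on the opposite strand, a gene that also rose, from 735 to 1086 (log2 fold change 0.55, limma adjusted p = 0.0161), and since the strand setting of the counting is not given in the sources used here, reads of the pair cannot be told apart. Hmmr, Kif2c and Kif11 did not pass, with log2 fold changes of 0.37, 0.27 and 0.03 (limma adjusted p = 0.253, 0.328 and 0.939). For Kif11, the motor that pushes spindle poles apart, the interval ran from -0.35 to 0.40.

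The central spindle and cytokinesis group had the lowest median log2 fold change of the 10 role groups, 0.17. A single one of its 6 genes rose, Kif23 (ENSMUSG00000032254.10, chr9:61915905-61946774), the kinesin of the centralspindlin complex. Its normalized counts were 594, 670.3, 708, 522 and 608 in ApcMin/+ mice and 919, 975, 825 and 992 in ApcMin/+; p16cis/cis mice, without overlap, and the log2 fold change was 0.58 (standard error 0.11, limma adjusted p = 0.00782). Racgap1, its partner in centralspindlin, had a log2 fold change of 0.27 (limma adjusted p = 0.213). Prc1 had 0.31 and the contractile ring gene Anln 0.07, while Ect2 and Kif20a had -0.05 and -0.10 (limma adjusted p = 0.335, 0.821, 0.886 and 0.704).

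The pair of chromosome structure genes differed in their calls. Mki67 (ENSMUSG00000031004.8, chr7:135689784-135716361) encodes Ki-67, the proliferation antigen that coats mitotic chromosomes. Its normalized counts were 1856, 2205, 2376, 2151 and 3072 in ApcMin/+ mice and 5251, 5195, 3239.8 and 4057 in ApcMin/+; p16cis/cis mice. The highest ApcMin/+ mouse, replicate 5, came close to the lowest ApcMin/+; p16cis/cis mouse, replicate 3, without reaching it. The log2 fold change was 0.92 (standard error 0.17, limma adjusted p = 0.00656). Top2a, which encodes topoisomerase II alpha, had 1830.0, 2279, 2318, 1411 and 2335 against 2824, 2358, 1981 and 1859. These overlapped widely, and the log2 fold change of 0.16 had a standard error of 0.17, an interval from -0.22 to 0.53 and a limma adjusted p of 0.564.

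Because some partners within a role group differed in their calls, the log2 ratios of 5 such pairs were compared between genotypes over the 9 mice. The pairs were chosen after the values were seen, so the tests describe these mice and are no independent evidence. For Mki67 to Top2a the log2 ratio averaged 0.20 ± 0.29 (SD, n = 5) in ApcMin/+ and 0.97 ± 0.21 (SD, n = 4) in the other genotype (two-sided exact permutation test, p = 0.0159, Benjamini-Hochberg adjusted p = 0.0265 over 5 pairs), higher in 4 of 4 ApcMin/+; p16cis/cis mice than in any ApcMin/+ mouse. Aurka to Plk1 shifted by 0.54 and Ube2c to Cdc20 by 0.68, each without overlap and each with the smallest p that an exact test of 5 against 4 mice allows (two-sided exact permutation test, p = 0.00794, adjusted p = 0.0198). The ratios of Foxm1 to Mybl2 and of Ccnb2 to Ccnb1 differed by 0.38 and 0.30, less than could be told from the spread between mice (two-sided exact permutation test, adjusted p = 0.190 and 0.179).

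Per kilobase of merged exons, the normalized counts of the 40 genes in ApcMin/+ mice ran from 23.2 for Ndc80 to 686 for Plk1. Plk1 led in both genotypes, at 686 ± 65.0 per kilobase (SD, n = 5) and 792 ± 32.6 (SD, n = 4). Behind it in ApcMin/+ mice came Ccnb2 at 457 ± 108, Pttg1 at 369 ± 106 and Ube2c at 350.4 ± 56.7 (SD, n = 5), neighbours that differed by less than their SDs. In ApcMin/+; p16cis/cis mice Ube2c, at 659.9 ± 21.9, and Ccnb2, at 650.1 ± 38.2 (SD, n = 4), held the places after Plk1 and likewise differed by less than their SDs.

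The 40 genes were also described mouse by mouse, and how far they moved together was not measured. As the mean deviation of each mouse from each gene's mean over 9 mice, on the log2 scale, ApcMin/+ mice had -0.37, -0.09, 0.15, -0.45 and -0.10, and ApcMin/+; p16cis/cis mice 0.36, 0.34, 0.07 and 0.10. The genotypes overlapped, since ApcMin/+ replicate 3 lay above ApcMin/+; p16cis/cis replicates 3 and 4. Among ApcMin/+ mice, replicate 3 was the highest in 31 of the 40 genes, while replicate 4 was the lowest in 22 and replicate 1 in 15. Among ApcMin/+; p16cis/cis mice, replicates 1 and 2 were the highest in 21 and 15 genes, and replicates 3 and 4 the lowest in 18 each. These orders were not counted over all genes tested. Without ApcMin/+ replicate 4 the median log2 fold change of the 40 genes was 0.27. In that fit 14 of the 40 were called, beside 11.7% of all genes tested called higher.

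**Figure D4:**
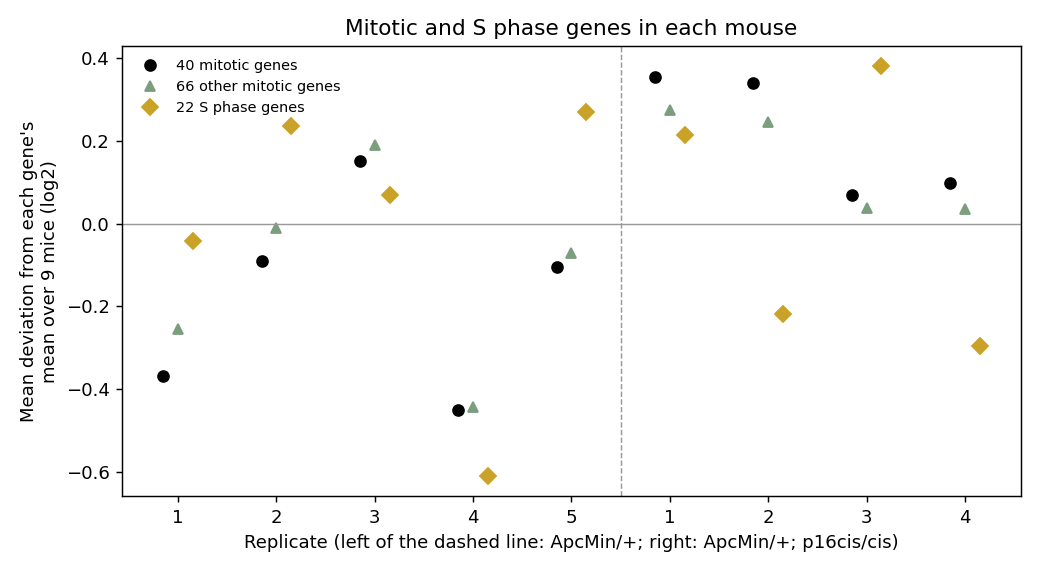
Mean deviation of each mouse from each gene's mean over the 9 mice (log2), for the 40 mitotic genes (circles), 66 other mitotic genes (triangles) and 22 S phase genes (diamonds). Circles and triangles run close together and are lowest in ApcMin/+ replicate 4. Diamonds are also lowest in that mouse, and they lie on both sides of 0 in each genotype.

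Other genes of the cell cycle were read from lists written by known function. Their counts stand beside 8.14% of all genes tested called higher and 8.75% called lower. Of 66 other mitotic genes, 14 passed the test, each of them higher, with a median log2 fold change of 0.27. The 3 with the largest changes were Cenpm, of the constitutive centromere network, from 170 ± 10.5 (SD, n = 5) to 348 ± 42.3 (SD, n = 4) (log2 fold change 1.03, standard error 0.13, limma adjusted p = 0.00172), the citron kinase gene Cit (0.96, standard error 0.16, limma adjusted p = 0.00490) and its partner Kif14 (0.92, standard error 0.21, limma adjusted p = 0.0133). Of 22 genes of S phase and replication, 1 passed and rose, the GINS subunit gene Gins2 (log2 fold change 0.55, limma adjusted p = 0.0411), with 11 above and 11 below 0 and a median of 0.02. The S phase list had a mean deviation of -0.02 ± 0.36 (SD, n = 5) in ApcMin/+ and 0.02 ± 0.33 (SD, n = 4) in the other genotype, and the difference between the mitotic and the S phase genes was not tested.

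Lists of the machinery that acts on mitotic genes and their products were read beside the same shares of all genes tested, 8.14% higher and 8.75% lower. With so few genes called, no result about either list is drawn. Of 11 MuvB and DREAM subunits, 2 passed and rose, with 9 log2 fold changes below 0 and a median of -0.19. The 2 were E2f4, a factor of the repressive complex (log2 fold change 0.54, standard error 0.08, limma adjusted p = 0.00339), and the MuvB subunit Lin37 (0.65, standard error 0.16, limma adjusted p = 0.0190). Of 16 mitotic entry inhibitors and APC/C core subunits, 2 passed and rose, the APC/C genes Anapc11 (0.72, limma adjusted p = 0.00532) and Cdc26 (0.48, limma adjusted p = 0.0147), with a median of 0.07.

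Markers of cell types were summed to show what the mucosa held beside these genes. Calls among all cell type markers stand beside 8.14% of all genes tested called higher and 8.75% called lower. Epithelial identity genes had summed normalized counts of 178103 to 258414 in ApcMin/+ and 172925 to 236932 in ApcMin/+; p16cis/cis mice, and the median log2 fold change of the 7 genes was -0.03. Of 7 crypt stem cell genes tested, 1 rose, Ephb2 (log2 fold change 0.35, limma adjusted p = 0.0432), 7 of 7 lay above 0, and the sums were 6028 to 10084 and 9686 to 12068. Of 8 colonocyte genes, the chloride exchanger gene Slc26a3 fell by 1.23 and Slc37a2 rose by 1.07 on the log2 scale (limma adjusted p = 0.00848 and 0.0368), 7 of 8 lay below 0 and the sums, 157581 to 303534 against 117082 to 145771, did not overlap. Car1 held the largest part of these colonocyte sums, at 92501 ± 41018 (SD, n = 5) in ApcMin/+ and 51029 ± 13562 (SD, n = 4) in the other genotype. Car1 overlapped between genotypes and did not pass (limma adjusted p = 0.0750). The part of the epithelial, stem cell and colonocyte genes in the rise of the mitotic genes was not tested.

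Markers from outside the epithelium were summed as well. The summed counts were 62.3 to 792 in ApcMin/+ and 246 to 396 in ApcMin/+; p16cis/cis mice for T cells, 17.8 to 880 and 21.9 to 260.0 for B cells, 147 to 360.4 and 173 to 204 for myeloid cells, 88.4 to 545 and 47.0 to 163 for fibroblasts, and at most 319 and 94.1 for smooth muscle. The plasma cell list had sums of 3743 to 5194 and 3026 to 4065, nearly all of them from Sdc1, a gene that epithelial cells also express. Among these lists and that of plasma cells the macrophage lysozyme gene Lyz2, the collagen gene Col3a1 and the immunoglobulin joining chain gene Jchain passed the test and fell (log2 fold changes of -1.56, -2.92 and -2.65, limma adjusted p = 0.00745, 0.0414 and 0.0175). The macrophage gene Adgre1, the fibroblast gene Lum, the plasma cell gene Tnfrsf17 and the endothelial genes Cdh5 and Kdr were at 0 in 4 of 4 ApcMin/+; p16cis/cis mice. In ApcMin/+ mice they were also low, at most 0.976 for Tnfrsf17, 3.90 for Lum, 6.70 for Adgre1, 23.8 for Cdh5 and 26.1 for Kdr. None of them reached the filter for testing, and the ApcMin/+; p16cis/cis libraries held fewer reads on genes. Of the genes tested, 1 of 6 myeloid, 1 of 4 plasma cell, 1 of 2 endothelial and 0 of 4 fibroblast genes had a log2 fold change above 0. These were Cd68 (0.85), Derl3 (0.77) and Vwf (0.43), and none passed (limma adjusted p = 0.0903, 0.288 and 0.360). The endothelial sums, 139 to 308 in ApcMin/+ and 130 to 279 in ApcMin/+; p16cis/cis mice, overlapped. The part of these markers in the rise of the mitotic genes was not tested.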

How the data were processed

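RNA of colonic mucosa from 9 mice was sequenced by the authors on the BGISEQ-500 platform after rRNA depletion and oligo dT selection; the methods name extraction from colonic crypts, BOWTIE2, RSEM and DESeq2. The build, annotation and tool versions are not given in the sources used here. Signal values, counts of each gene scaled by the mouse's size factor, were deposited in 1 table. Dividing by the step of each column gave whole reads (within 0.01) for 100% of positive values. Size factors recomputed from them were 1.24 to 1.26 times the deposited ones.

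Of 54146 identifiers, 54079 matched GENCODE M21 (GRCm38) without regard to version. The main test was limma 3.58.1 (R 4.3.3, trended variances) on log2(normalized count + 1), a scale that understates changes of low genes, over 14410 genes, with genotype as the only term and Benjamini-Hochberg adjustment over all of them. edgeR 4.0.16 and DESeq2 1.42.0 served as alternatives on the recovered reads, beside other filters and scalings, covariates, the replicate block and each mouse left out. The correction for GC content and length was added after seeing the data. Ratios of gene pairs were compared by exact permutation of the mice between genotypes. The procedure was tested on simulated data. The 40 genes and all lists were chosen with earlier results of these data known, so no test over a list was made. Full values are given for the 12 genes with the smallest adjusted p, for the gene of each role with the largest log2 fold change and for Mki67, Top2a, Ccnb1, Cdk1, Foxm1 and Birc5. From other lists at most 3 called genes per direction are named. Lists use the table's older symbols Sgol1, Sgol2a and Casc5. Counting error alone is covered by the read numbers given, since no molecular identifiers are known here.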

Additional observations from a re-analysis of the deposited data

Results flagged for a closer look

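In 3 of 80 groups of 4 or 5 mice, 1 group per gene and genotype, a single mouse lay far from the others, where chance gives about 4. Ccnb2 was 908 in ApcMin/+; p16cis/cis replicate 3 and 1022 to 1029 in the other 3 mice of that genotype. Its rise no longer passed without that mouse, but the same held for 7 of the 9 mice, that one included. Kif2c, a microtubule depolymerase gene, was 402 in replicate 1 of the ApcMin/+; p16cis/cis mice, a male, and 249 to 254 in the 3 females. Pttg1 was 1103 in ApcMin/+ replicate 4 and 605 to 742 in the other 4 ApcMin/+ mice.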

How the results depend on the processing

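The count of 13 called genes became 7 in females only (6 of the 13 and Pttg1), 0 with the mitochondrial share as a covariate, 0 with a fold over 2 required and 0 with Bonferroni adjustment, and ran from 7 to 14 with 1 mouse left out. It was 8 without ApcMin/+ replicate 1, 8 without ApcMin/+; p16cis/cis replicate 1 and 7 without ApcMin/+; p16cis/cis replicate 2. The cause was not tested, except that the stricter thresholds leave fewer calls by construction. A fold over 2 and Bonferroni adjustment are the criteria named in the study's methods. Among all genes tested, 1.83% rose by more than 2-fold at an adjusted p under 0.05. The share of all genes passing the Bonferroni adjustment was not counted. Of the 13 genes, 7 stayed called with any of the 9 mice left out, namely Ube2c, Aurka, Foxm1, Cdca3, Mki67, Kif23 and Cenpe, although Mki67 and Cenpe were lost in females only (limma adjusted p = 0.0922 and 0.108). The others were each lost with some mouse left out, with limma adjusted p up to 0.0715 for Birc5 (without ApcMin/+; p16cis/cis replicate 2), 0.0675 for Aurkb, 0.0650 for Tpx2, 0.101 for Nusap1, 0.0962 for Ccnb2 and 0.124 for Kif4. ApcMin/+ replicates 1, 2, 4 and 5 and each ApcMin/+; p16cis/cis replicate were among the mice whose removal ended at least 1 of these calls. None of the 13 reversed under any of 24 alternatives.

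Over those alternatives the median log2 fold change of the 40 genes lay between 0.27 and 0.53. Reversed log2 fold changes, none of them called, were those of Top2a (-0.00823), Kif11 (-0.11) and Anln (-0.00569) in females only, of Bub1b (0.10), Kif20a (0.44) and Ect2 (0.18) with the mitochondrial share as a covariate, and of Ect2 after the GC and length correction (0.22), or 0.28 with the replicate block added. With 1 mouse left out, Kif11 ran from -0.093 to 0.10, Anln from -0.013 to 0.17, Ect2 from -0.20 to 0.043 and Nuf2 from -0.038 to 0.27.

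Same-numbered mice are different animals, and their deviations correlated by 0.02 on average, so the numbers share only a number. With the replicate block 10 of the 40 genes were called, beside 6.79% of all genes tested called higher, and the log2 fold change of Ect2 was 0.043. Without a filter on low values the median log2 fold change of all genes was -0.12. There 12 of the 40 were called, beside 3.01% of the genes of that fit. With upper-quartile scaling 55.5% of all calls were higher, against 48.2% in the reported fit. That scaling called 14 of the 40, beside 9.77% of all genes tested. Corrected for GC and length, 15 of the 40 were called, beside 6.44% of all genes. Of the 15, 11 were among the 13, with Aurkb and Ccnb2 lost and Mad2l1, Ndc80, Hmmr and Cdc25c gained. In all, 7 genes outside the 13 passed in at least 1 alternative.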

Other observations

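Among all genes tested, 8.14% were called higher and 8.75% lower. Of 8 genes of quiescence and p53 response, 3 passed the test and rose in ApcMin/+; p16cis/cis mice, with a median log2 fold change of 0.05. They were Bax, a p53 target that promotes apoptosis (log2 fold change 0.66, limma adjusted p = 0.00881), the stress response gene Sesn2 (0.48, limma adjusted p = 0.0155) and Mdm2, which encodes the ubiquitin ligase of p53 (0.41, limma adjusted p = 0.0440). The rest of the list did not pass. Cdkn1a and Cdkn1c had log2 fold changes of 0.01 and 0.10 (limma adjusted p = 0.989 and 0.836). Cdkn1b, Ccng1 and Btg2 lay below 0, at -0.25, -0.33 and -0.42 (limma adjusted p = 0.0716, 0.126 and 0.0965). Of 7 goblet cell genes, 1 passed, Spink4, which rose by 1.41 on the log2 scale (limma adjusted p = 0.0139). The median of that list was 0.31, and Zg16 alone lay below 0, at -0.89 (limma adjusted p = 0.0775). Of 6 enteroendocrine genes, 1 passed and rose, Insl5, by 1.24 (limma adjusted p = 0.0211). In that list 2 passed and fell, Chga by 0.69 and Chgb by 1.11 (limma adjusted p = 0.0373 and 0.00846). Of 5 tuft cell genes tested, 0 passed.

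GC content of each gene's longest transcript had a median of 48.1% in the 13 genes that rose and 44.2% in the 27 that did not pass. A fit with sex by genotype as an interaction was also made. With 1 male in the ApcMin/+; p16cis/cis group, it could not show whether the genotype difference varied with sex.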
